A study of Mus musculus with 4 samples.

Results

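The genes described here run the G1 phase of the cell cycle: the D cyclins Ccnd1, Ccnd2 and Ccnd3, their kinases Cdk4 and Cdk6, the kinase inhibitors Cdkn1b, Cdkn1c, Cdkn2c and Cdkn2d, and Rb1. They were taken by gene name from a list chosen with earlier results of these data known. All 10 were present among the 13614 genes of the deposited count table. RNA was sequenced from mouse fetal liver cells of embryonic days 14.5 to 16.5 that had been transduced with the retrovirus MSCV-MLL-AF9-IRES-GFP and sorted for GFP. There were 2 Prl2-/- (Prl2 knockout) and 2 Prl2+/+ (wild type) libraries, so every library carries MLL-AF9, a fusion oncogene found in acute leukemia, and the genotypes differ in Prl2 (Ptp4a2), the gene of the phosphatase PRL2. The study defines these sorted cells as leukemia-initiating cells and compares their transcriptomes to find genes and pathways altered by the loss of PRL2. The labels do not say how many embryos or transductions stand behind a library, which part of the Prl2 gene is deleted, or whether replicates are separate cultures, and the p-values reflect no more than the spread among these 4 libraries.

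In G1 a mitogen signal raises a D cyclin, which binds CDK4 or CDK6 and starts the phosphorylation of the retinoblastoma protein RB1. Phosphorylated RB1 releases E2F transcription factors, which switch on the genes of DNA synthesis. INK4 proteins, here p18 (Cdkn2c) and p19 (Cdkn2d), bind CDK4 and CDK6 and keep cyclin D away, while CIP/KIP proteins, here p27 (Cdkn1b) and p57 (Cdkn1c), bind assembled cyclin-kinase complexes and mainly block CDK2. In blood formation p57 and p27 are known for holding stem cells at rest. CDK6 is known as a kinase on which leukemias driven by MLL fusions depend.

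Library totals were 15422309 and 15267768 counts in the Prl2 knockout and 14625725 and 14921313 counts in the wild type. Ptp4a2 had 89 and 104 counts in the knockout libraries, against 4884 and 5105 in the wild type libraries, so each library matched its label. All 7 listed markers of MLL-AF9 myeloid cells, among them Hoxa9, Meis1 and Kit, were in the table. Wild type replicate 1 stood apart from the other libraries in sex-linked genes. Xist, the RNA of the inactive X chromosome, had 3 and 12 counts in the knockout libraries, against 11147 (wild type replicate 1) and 9 (wild type replicate 2). The Y-linked Ddx3y had 1320 and 1173 counts in the knockout libraries, against 12 (wild type replicate 1) and 1271 (wild type replicate 2). Each member's fold change below is followed by its values or range after leaving out 1 library in turn.

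Levels are given as CPM, the count scaled to the size of the library after adjustment by TMM factors, and between genes as CPM per kb of the deposited gene length. By mean CPM per kb over the 4 libraries, Cdk4 was highest at 107, above 96.9% of all genes in the table. Cdkn2d followed at 73.6, Cdk6 at 41.9 and Ccnd3 at 39.1, then Cdkn1c at 16.4, Rb1 at 15.96, Cdkn2c at 15.2 and Cdkn1b at 13.1. Ccnd1 and Ccnd2 were far below, at 0.432 and 0.383 CPM per kb, with 7.57% and 6.62% of the genes lower. Cdk4 exceeded Cdkn2d in every library, and Cdkn2d exceeded Cdk6 in every library. Cdk6 and Ccnd3 overlapped, as did neighbours among Cdkn1c, Rb1, Cdkn2c and Cdkn1b, and Ccnd1 and Ccnd2, so the order within these sets was not resolved by the spread of the libraries. Between Cdkn1b and Ccnd1 lay the widest gap in this order, a ratio of 17.2 to 50.2 in each library.

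**Figure D1:**
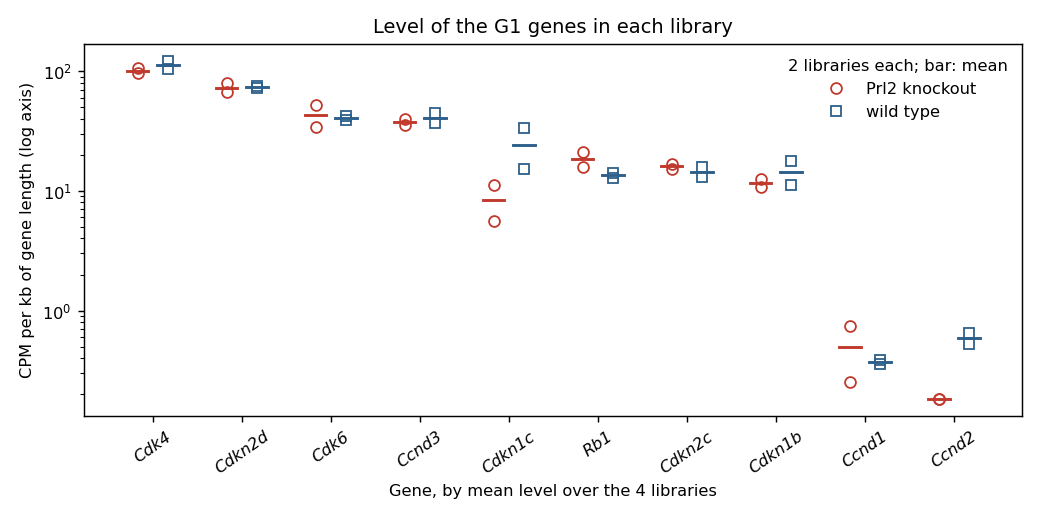
Level of the 10 genes in each library as CPM per kb of deposited length, on a log axis, ordered by the mean over 4 libraries, with the Prl2 knockout at left (circles) and the wild type at right (squares) for each gene and bars at the means. Ccnd1 and Ccnd2 lie below 1 CPM per kb in every library, and the groups are apart in Ccnd2, Cdkn1c and Rb1.

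Across the transcriptome edgeR's quasi-likelihood test called 1 of 13614 genes, Ptp4a2, which is 0.00735% of them, at an adjusted p of 0.05 or less. Of the 10 G1 genes 0 were called higher and 0 lower, and 3 had an unadjusted p under 0.05, where 9.94% of all genes did. DESeq2 and limma-voom also called 0 of the 10, where they called 0.688% and 0.00735% of the genes they tested. edgeR's likelihood ratio test called 1 of the 10, Ccnd2, where it called 0.477% of all genes. By sign, 4 of the 10 had a positive and 6 a negative log2 fold change for knockout over wild type, with a median of -0.070 beside -0.0059 over all genes. In 3 of them, Ccnd2, Cdkn1c and Rb1, the 2 groups did not overlap, where 44.2% of all genes did not overlap.

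Among the D cyclins Ccnd3 supplied nearly all transcripts, in both genotypes. Cyclin D3, which is needed for the expansion of lymphoid and erythroid precursors, made up 97.5% and 98.9% of D cyclin transcripts per kb in the knockout libraries, against 97.7% in each wild type library. Ccnd3 (ENSMUSG00000034165.16, chromosome 17 from 47505051 to 47599691 in mm10) had 4726 and 5281 counts in the knockout, against 4846 and 5791 in the wild type. The groups overlapped, at 309 and 349 CPM in the knockout against 324 and 390 CPM in the wild type. The log2 fold change was -0.12 (SE 0.136, 95% interval -0.46 to 0.22), and as a ratio of knockout to wild type that interval runs 0.729 to 1.16. Without each library in turn it lay between -0.26 and 0.017. A processed copy on chromosome 4, Ccnd3-ps, matched 881 bases of the Ccnd3 transcript at 96.3% identity. It had 90 counts in all beside 20644 for Ccnd3, and the assignment of reads between these copies is uncertain. Ccnd3 also shares 361 exon bases (4.11% of its exons) with Bysl on the opposite strand, which had 3191 counts in all.

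With all 4 libraries, edgeR's quasi-likelihood test gave Ccnd2 as the member with the largest difference relative to its error. Cyclin D2, the form induced by cytokines and by STAT5 in many blood cells, had 26 and 26 counts in the knockout, against 74 and 90 in the wild type. That is 1.70 and 1.72 CPM in the knockout, against 4.95 and 6.06 CPM in the wild type. Both knockout libraries lay below both wild type libraries, and the summed counts were 52 (exact Poisson 95% interval 38.8 to 68.2) in the knockout and 164 (140 to 191) in the wild type. These intervals cover counting error only. The knockout was at 0.312 of the wild type, a log2 fold change of -1.68 (SE 0.312, 95% interval -2.46 to -0.90).

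This difference was called by some tests and not by others. In edgeR's quasi-likelihood test the p of Ccnd2 was 0.00210 and its adjusted p 0.479, and in DESeq2 the adjusted p was 0.0834. In the authors' deposited table, where 65 genes (0.477%) pass an adjusted p of 0.05 and 40 of those (0.294% of all) are lower, Ccnd2 has an adjusted p of 0.0445. The likelihood ratio test run here gave the same adjusted p of 0.0445. It also gave the deposited p-value for every other member, so these are not separate evidence. Without each library in turn the log2 fold change lay between -1.83 and -1.53, and without wild type replicate 1 it was -1.83. As Ccnd2 made up 0.5001% and 0.454% of D cyclin transcripts per kb in the knockout, against 1.39% and 1.42% in the wild type, the total of the 3 D cyclins hardly followed it. That total was 38.2 ± 2.85 CPM per kb in the knockout and 41.6 ± 5.42 CPM per kb in the wild type (SD, n = 2 each).

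Ccnd2 (ENSMUSG00000000184.12) spans 127125162 to 127152193 of chromosome 6. The 2 antisense genes outside the table, Gm43126 and 9330179D12Rik, share 372 and 368 bases of its exons. The strand setting of the counting is not given in the sources used here, so reads from antisense partners cannot be told apart from those of the gene.

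Ccnd1 was at the same low level, with 53 and 18 counts in the knockout against 25 and 27 in the wild type. Cyclin D1, the main D cyclin of many epithelial and stromal cells, was thus highest and lowest in the 2 knockout libraries, with the wild type libraries between them. Its log2 fold change was 0.42 (SE 0.565, adjusted p = 0.824, edgeR quasi-likelihood test), and it was -0.55 without Prl2 knockout replicate 1 and up to 0.99 without one of the other libraries. Ccnd1 (ENSMUSG00000070348.5) lies on chromosome 7 from 144929931 to 144939925. Of its exon bases 23.4% also belong to LTO1 on the opposite strand, which had 345 and 398 counts in the knockout against 377 and 403 in the wild type, so the low counts of Ccnd1 are uncertain.

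The kinases were abundant and divided unequally. Cdk4 (ENSMUSG00000006728.12, chromosome 10 from 127063534 to 127067920) had 344 and 313 CPM in the knockout, against 396 and 342 CPM in the wild type. The groups overlapped by a narrow margin, and the log2 fold change was -0.17 (SE 0.123, 95% interval -0.47 to 0.14). It was -0.071 without wild type replicate 1 and -0.28 without wild type replicate 2, the ends of its range over the libraries left out. Cdk6 (ENSMUSG00000040274.11, chromosome 5 from 3341485 to 3531008) had 724 and 483 CPM in the knockout, against 544 and 595 CPM in the wild type. The knockout libraries again held the highest and the lowest value. The log2 fold change of Cdk6 was 0.082 (SE 0.208, 95% interval -0.44 to 0.61), and it was -0.24 without Prl2 knockout replicate 1, up to 0.35 without one of the other libraries, and -0.090 once the dependence of each library on gene length had been removed.

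On counts Cdk6 was the larger of the pair, but its deposited length is 13989 bp beside 3249 bp for Cdk4. Per kb Cdk4 exceeded Cdk6 in every library, by 2.04-fold and 2.79-fold in the knockout against 3.13-fold and 2.47-fold in the wild type. Cdk6 therefore made up 32.9% and 26.4% of the 2 kinases per kb in the knockout, against 24.2% and 28.8% in the wild type, and these shares overlapped. Cdk4 shares 641 exon bases (19.7% of its exons) with Tspan31 on the opposite strand, which had 2348 counts in all beside 20995 for Cdk4.

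The start regions of the kinase genes are shown because they differ in the E-box CACGTG, the letters that MYC and related factors bind. Each is 300 bases from RefSeq (GRCm38.p6), with 250 bases before and 50 after the start, and capitals mark each E-box. The Cdk4 window is chr10:127063285-127063584 and the Cdk6 window chr5:3343643-3343942, both on the plus strand. The Cdk4 window spans the first base of the deposited gene, 127063534. The Cdk6 window lies inside the deposited gene, which begins at 3341485, and no window at that position was searched for Cdk6.
Cdk4: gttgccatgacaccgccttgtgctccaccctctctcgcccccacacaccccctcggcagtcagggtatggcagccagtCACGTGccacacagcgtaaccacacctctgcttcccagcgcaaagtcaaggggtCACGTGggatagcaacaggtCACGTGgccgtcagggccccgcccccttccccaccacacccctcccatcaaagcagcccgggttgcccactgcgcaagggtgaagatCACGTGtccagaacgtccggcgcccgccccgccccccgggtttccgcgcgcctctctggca
Cdk6: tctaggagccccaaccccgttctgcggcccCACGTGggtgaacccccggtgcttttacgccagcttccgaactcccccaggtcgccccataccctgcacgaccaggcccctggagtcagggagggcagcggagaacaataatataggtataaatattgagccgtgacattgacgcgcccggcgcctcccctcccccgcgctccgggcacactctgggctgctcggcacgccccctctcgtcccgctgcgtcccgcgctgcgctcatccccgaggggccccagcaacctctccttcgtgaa

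The Cdk4 window holds 4 E-boxes and the Cdk6 window 1. Of 32851 promoter windows of this length, 7.15% hold at least 1 E-box and 8, or 0.0244%, hold 4 or more. Windows were found for 6 of the 10 members (8 windows), by symbol. Among the others a CACGTG was found in 1 of the windows of Cdkn2c, and in none of those of Ccnd3, Cdkn1b and Cdkn2d. The motif is its own reverse complement, and a match is a description of letters, not of a bound site. As the E-box is shown for its difference, its share of windows is not a test. GC box, STAT, CRE and FOXO letters were searched as well. The GC box GGGCGG, in 35.7% of all windows, occurred 3 times in the Cdk4 window and 0 times in the Cdk6 window. Over the 8 windows it occurred 0 to 5 times. FOXO letters were in 1 of the windows of Ccnd3, and STAT and CRE letters in none. The E2F letters TTTCGCGC and TTTGGCGC, searched on both strands, were in 0 of the 8 windows and in 0.813% of all windows. Other spellings of the E2F site were not searched. At so low a share, 0 of 8 windows does not show that E2F sites are missing.

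Of the CIP/KIP inhibitors, Cdkn1c had the second largest difference among the members. p57, an imprinted gene product that holds cells in G1 and G0, had 174 and 347 counts in the knockout, against 461 and 1017 in the wild type. On the CPM scale it was at 11.4 and 22.9 in the knockout, against 30.8 and 68.5 in the wild type. The groups did not overlap, but the libraries of 1 genotype also differed from each other, 2.01-fold in the knockout and 2.22-fold in the wild type. The log2 fold change was -1.53 (SE 0.547, 95% interval -3.03 to -0.034), with a p of 0.0469 and an adjusted p of 0.501 in edgeR's quasi-likelihood test. In DESeq2 the adjusted p of Cdkn1c was 0.0834, the same to this precision as that of Ccnd2. Its adjusted p is 0.370 in the authors' deposited table.

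The size of the Cdkn1c difference depended on the library left out. It was -1.12 without Prl2 knockout replicate 1, -2.12 without Prl2 knockout replicate 2, -2.01 without wild type replicate 1 and -0.85 without wild type replicate 2, with adjusted p values of 0.477 to 0.875. Cdkn1c (ENSMUSG00000037664.13) lies on chromosome 7 from 143458339 to 143461050, 1.47 Mb from Ccnd1. The antisense gene Gm44732, outside the table, covers 30.7% of its exon bases, so its reads cannot be told apart.

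Cdkn1b, the other CIP/KIP member, had overlapping groups. p27, the inhibitor that leaves dividing cells by SKP2-dependent degradation, had 57.7 and 49.1 CPM in the knockout, against 81.1 and 50.6 CPM in the wild type. Wild type replicate 1 was high, and the other 3 libraries lay within 49.1 to 57.7 CPM. The log2 fold change was -0.30 (SE 0.247, adjusted p = 0.690, edgeR quasi-likelihood test). Without wild type replicate 1, the library that stood apart in Xist, it was 0.064, and without wild type replicate 2 it was -0.61. Cdkn1b (ENSMUSG00000003031.14) lies on chromosome 6 from 134920401 to 134925513, 7.80 Mb from Ccnd2, and no annotated gene shares its exon bases.

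Of the 4 families, the CIP/KIP pair had the widest range of shares between libraries. Cdkn1b made up 69.4% and 49.0% of the pair per kb in the knockout libraries, against 54.1% and 24.9% in the wild type libraries. The summed level of the pair was 18.3 and 22.0 CPM per kb in the knockout, against 32.9 and 44.7 CPM per kb in the wild type. These sums did not overlap, as in 44.2% of all genes. Most of the difference in that sum came from Cdkn1c, at 8.41 ± 4.0 CPM per kb in the knockout and 24.4 ± 13.1 CPM per kb in the wild type (SD, n = 2 each). Cdkn1b was at 11.7 ± 1.34 CPM per kb in the knockout and 14.5 ± 4.73 CPM per kb in the wild type (SD, n = 2 each).

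Both INK4 inhibitors overlapped between the genotypes. Cdkn2d (ENSMUSG00000096472.2, chromosome 9 from 21288410 to 21291407), the gene of p19, had 124 and 106 CPM in the knockout, against 119 and 115 CPM in the wild type. The wild type values lay between the knockout values, and the log2 fold change was -0.021 (SE 0.121, 95% interval -0.32 to 0.28). Without each library in turn it was -0.14 to 0.092. Cdkn2c (ENSMUSG00000028551.14, chromosome 4 from 109660876 to 109667189), the gene of p18, had 45.1 and 41.1 CPM in the knockout, against 42.4 and 34.95 CPM in the wild type. The groups overlapped, with a log2 fold change of 0.16 (SE 0.150, 95% interval -0.22 to 0.53). It was 0.29 without wild type replicate 1 and 0.0185 without wild type replicate 2, and between these without either knockout library. Cdkn2c lies 20.2 Mb from Ptp4a2, the targeted gene on the same chromosome.

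Cdkn2d made up 82.5% and 81.4% of the INK4 pair per kb in the knockout, against 82.7% and 84.8% in the wild type. Over the 4 inhibitors together the level was 114 and 104 CPM per kb in the knockout, against 124 and 131 CPM per kb in the wild type. These levels did not overlap, as in 44.2% of all genes, and of the 4 inhibitors Cdkn1c alone had groups without overlap. The ratio of the 2 kinases to the 4 inhibitors did overlap, at 1.38 and 1.25 in the knockout against 1.295 and 1.13 in the wild type.

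**Figure D2:**
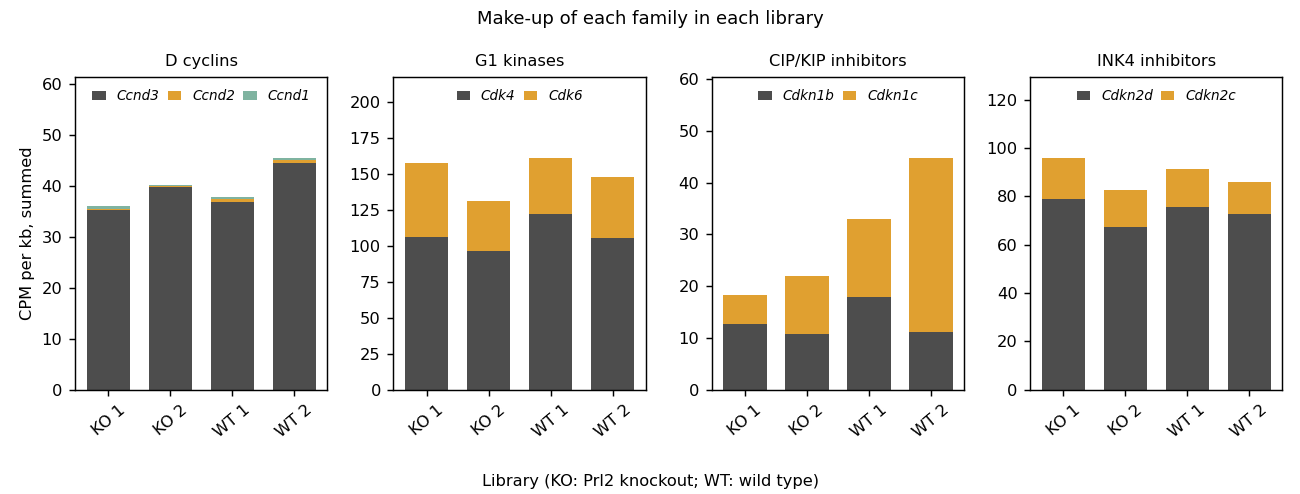
Stacked CPM per kb of the members of each family in each library, with the 2 Prl2 knockout libraries left of the 2 wild type libraries in every panel. Ccnd3 fills the D cyclin bars, Cdk4 is the larger kinase, and the summed CIP/KIP bars are lower in the knockout, at 18.3 and 22.0 against 32.9 and 44.7 CPM per kb.

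Of the members with a positive fold change, Rb1 had the largest relative to its error in the quasi-likelihood test on all 4 libraries. RB1, the pocket protein that holds E2F factors, had 95.2 and 127 CPM in the knockout, against 77.0 and 85.1 CPM in the wild type. Both knockout libraries lay above both wild type libraries. The log2 fold change was 0.45 (SE 0.164, 95% interval 0.044 to 0.86), with an unadjusted p of 0.0352 and an adjusted p of 0.497 in edgeR's quasi-likelihood test. It was 0.23 without Prl2 knockout replicate 2 and 0.64 without Prl2 knockout replicate 1. Rb1 (ENSMUSG00000022105.6) lies on chromosome 14 from 73183673 to 73325822. It shares 488 exon bases with Rcbtb2 and 408 with Lpar6, which lie on the opposite strand and had 2077 and 1204 counts in all beside 5789 for Rb1. Rcbtb2 had 40.4 and 30.6 CPM in the knockout against 31.6 and 35.4 CPM in the wild type, and Lpar6 had 23.7 and 10.2 CPM in the knockout against 26.7 and 19.5 CPM in the wild type. Both overlapped between the genotypes, and their part in the Rb1 counts was not tested.

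**Figure D3:**
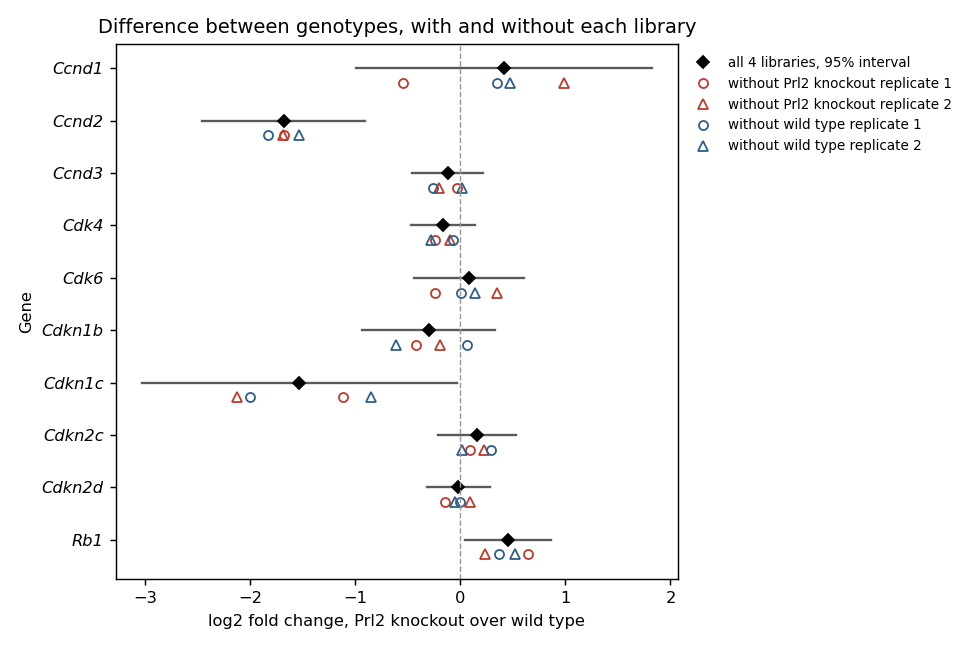
Log2 fold change of each gene, Prl2 knockout over wild type, with its 95% interval over all 4 libraries (diamond and line) and the value after leaving out each library (open symbols below). Ccnd2 stays between -1.83 and -1.53, whereas Ccnd1, Ccnd3, Cdk6, Cdkn1b and Cdkn2d have values on both sides of 0.

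Beside Ccnd2, Cdkn1c and Rb1, the summed levels of 7 of 12 marker and context lists did not overlap between the genotypes. Among all genes 44.2% did not overlap. The genes of these lists were chosen with earlier results of these data known, so their counts by sign are a description. The 19 proliferation genes listed as context all had positive fold changes, where 49.1% of all genes did. Of these 19, 17 were positive without Prl2 knockout replicate 1 or without wild type replicate 1. Their summed level was 6382 and 5497 CPM in the knockout against 4647 and 5163 CPM in the wild type. The list of MLL-AF9 myeloid leukemia-initiating cells, with 5 of 7 fold changes negative, summed to 2582 and 2156 CPM in the knockout against 2745 and 4633 CPM in the wild type. Mki67, expressed in dividing cells, was at 748 and 575 CPM in the knockout against 408 and 500.3 CPM in the wild type. Of 10 erythroid markers 6 were in the table, all with negative fold changes, and their summed level was 5.36 and 10.7 CPM in the knockout against 31.9 and 15.3 CPM in the wild type. Of 7 macrophage markers 3 were in the table, with 823 and 1109 CPM in the knockout against 428 and 446 CPM in the wild type, and C1qa, C1qb, C1qc and Mrc1 were not among the genes listed. Mature neutrophil markers, all 6 in the table and 4 with positive fold changes, were at 2292 and 2688 CPM in the knockout against 2142 and 2154 CPM in the wild type. The 2 stromal markers in the table, of 4, were at 1.11 and 1.06 CPM in the knockout against 1.87 and 2.22 CPM in the wild type, and the 1 hepatocyte marker in the table, of 5, at 0.981 and 1.06 CPM in the knockout against 1.27 and 1.95 CPM in the wild type. The part of these lists in the results on Ccnd2, Cdkn1c and Rb1 was not tested, and in bulk RNA fewer cells of a type and less RNA per cell cannot be told apart. B cell markers were at 70.7 and 64.8 CPM in the knockout against 88.9 and 70.5 CPM in the wild type, and overlapped. The T cell, megakaryocyte, mast cell and endothelial lists had 1 to 4 members in the table, and their sums overlapped too.

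Around the members, 38 of 39 other genes of the G1/S step were in the table, all but the INK4 gene Cdkn2b. These genes were chosen with earlier results of these data known, so their counts by sign are a description. edgeR's quasi-likelihood test called 0 of them, and 10 had an unadjusted p under 0.05, 9 with positive and 1 with negative fold changes, where 5.64% and 4.3% of all genes did. Likewise 0 were called by limma-voom, by DESeq2 and by the likelihood ratio test. By sign 27 were positive and 11 negative (24 to 31 positive without each library in turn), with a median log2 fold change of 0.18 beside -0.0059 over all genes and -0.070 over the 10 members. Without each library in turn that median was 0.094 to 0.25, and with the length dependence removed 0.13.

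The genes of the E cyclins (Ccne1 and Ccne2), of their kinase Cdk2, of the S phase cyclin Ccna2 and of the CDK-activating phosphatase Cdc25a were positive in 5 of 5, also without each library in turn. Ccna2, with the smallest p of these, was at 225 and 186 CPM in the knockout against 159 and 149 CPM in the wild type (log2 fold change 0.42, SE 0.129). The other pocket proteins were positive in 2 of 2, and Rbl1, which encodes p107, was at 150.0 and 136 CPM in the knockout against 102 and 114 CPM in the wild type (0.41, SE 0.117). In Rb1, Rbl1 and Rbl2, all 3 pocket protein genes, the groups did not overlap, as in 44.2% of all genes. Of 10 E2F and DP factors 7 were positive, and 6 to 10 without each library in turn. E2f8, a repressor of the family, was at 0.50 on the log2 scale (SE 0.128), and Tfdp1, the partner of E2F proteins, 0.18 (SE 0.110).

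Genes of protein turnover split 5 to 5. Rbx1, the ring subunit of cullin ligases, was at 57.2 and 53.2 CPM in the knockout against 73.1 and 66.5 CPM in the wild type (-0.34, SE 0.117), and Cks1b, which helps SKP2 bind p27, had -0.19 (SE 0.125). Of 5 DREAM/MuvB subunits 3 were positive, and Rbbp4, a histone-binding subunit, had 0.30 (SE 0.0997). Cdc37, the chaperone that loads CDK4 onto HSP90, had 0.16 (SE 0.114). Among the other inhibitors Cdkn1a, the gene of p21, was at 46.3 and 47.7 CPM in the knockout against 50.4 and 32.9 CPM in the wild type. Cdkn2a, the INK4A/ARF gene, had 49 and 20 counts in the knockout against 21 and 12 in the wild type (1.03, SE 0.588). The smallest adjusted p among these 38 genes was 0.479 in edgeR's quasi-likelihood test.

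Fold changes between the genotypes also differed with gene length. For protein-coding genes of mean log2 CPM above 3, the fold changes had a log2 median of 0.13 at a deposited length of 7091.5 bp or more and of -0.092 at 3012.5 bp or less. With this dependence removed, Ccnd2 was at -1.80, Cdkn1c at -1.46 and Rb1 at 0.40.

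**Figure D4:**
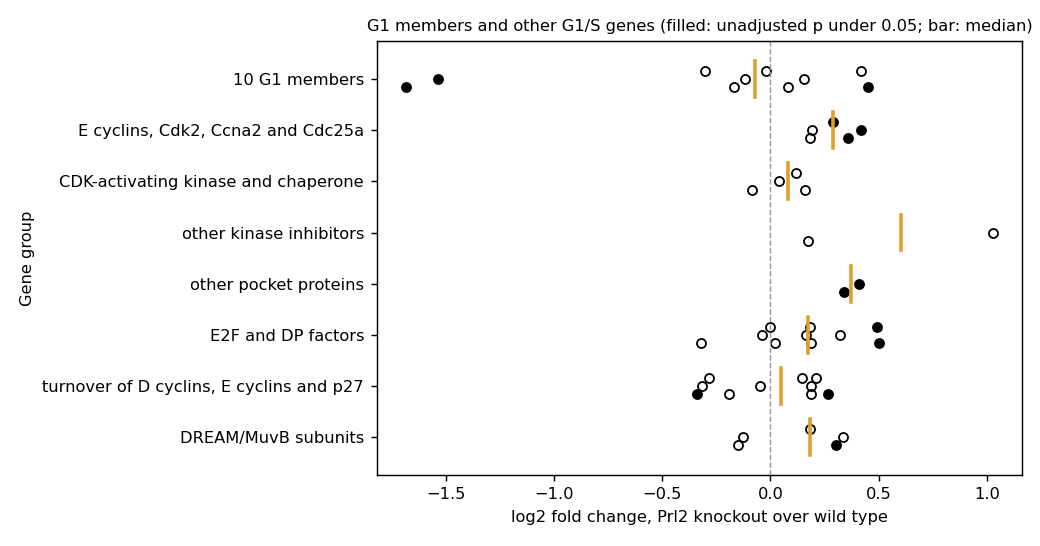
Log2 fold change, Prl2 knockout over wild type, of the 10 G1 members and of 38 other G1/S genes by role, with filled circles for an unadjusted p under 0.05 and bars at the medians. The members spread from -1.68 to 0.45 around a median of -0.070, while the E cyclins with Cdk2, Ccna2 and Cdc25a, the other kinase inhibitors and the other pocket proteins are all above 0.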

How the data were processed

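The members and gene lists were chosen with earlier results of these data known. The authors deposited 1 table of whole-number read counts per gene for 4 libraries. The submitters' processing notes name the mm10 genome, featureCounts, STAR and Bowtie2, with versions, roles and strand setting not given in the sources used here. The deposited table further gives, per the file headers, the authors' log2 fold change, p-value and adjusted p-value and a gene length in bp, which for the 10 members equals the union of the listed exons. Another 8 columns of per-library log values were not used. The table had been filtered on low counts before deposit, and filterByExpr kept all 13614 genes. Library totals of 14625725 to 15422309 counts leave the widest counting error, relative to the level, in Ccnd1 and Ccnd2.

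Counts were tested with edgeR 4.0.16 (R 4.3.3): TMM factors, robust quasi-likelihood test, genotype as the single term, two-sided p-values with Benjamini-Hochberg adjustment over all genes, called at 0.05 or less. The standard error is the log2 fold change divided by the root of F, with 95% intervals from its t distribution. The fits were tested on simulated data, in which the changed genes had higher mean counts than Ccnd1 and Ccnd2. Alternatives were DESeq2 1.42.0, limma-voom (limma 3.58.1), edgeR's likelihood ratio test, other scalings and filters, a replicate block, a length correction and leaving out each library. Shares and sums per kb have no test. Positions and exon overlaps came from GENCODE M21, where all 10 members had the deposited coordinates, near-identical copies from blastn (90% identity, 200 bases) and promoters from RefSeq.

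Named genes were the 10 members, Ptp4a2, Mki67, and for each role of the other G1/S genes the member highest per kb and the one with the smallest p. Markers, sex-linked genes, and overlapping or copied genes were named beside these for the checks they serve, the sex-linked and overlapping ones after their values were seen. No genes were ranked for a pattern like a member's, since 4 libraries are too few. The chi-square per gene was 18.7 between the knockout and 33.8 between the wild type libraries, more than counting error gives, and each library was counted as a sample. These values cannot show whether the libraries come from separate embryos or transductions.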

Additional observations from a re-analysis of the deposited data

How the results depend on the processing

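The call of 0 members held under every alternative except edgeR's likelihood ratio test, which called 1 (Ccnd2). The call of 0 other G1/S genes held under all of them. Over all genes 1 was called in the test reported, 90 by DESeq2, 65 by the likelihood ratio test and 0 to 8 without each library in turn. The cause of these changes was not tested. Of 130 refitted fold changes of members 7 changed sign. With the length dependence removed Cdk6 was at -0.090 and Cdkn2d at 0.072. Without each library in turn Ccnd1 ranged from -0.55 (without Prl2 knockout replicate 1) to 0.99, Ccnd3 from -0.26 to 0.017 (without wild type replicate 2), Cdk6 from -0.24 (without Prl2 knockout replicate 1) to 0.35, Cdkn1b from -0.61 to 0.064 (without wild type replicate 1), and Cdkn2d from -0.14 to 0.092 (without Prl2 knockout replicate 2). Shares of counts, not divided by length, put Ccnd3 at 98.0% of D cyclins in the wild type. They put Cdk6 at 64.2% of the kinases in the knockout and 60.7% in the wild type. Cdkn1b was at 75.8% of its pair in the knockout and 57.5% in the wild type, where its mean share per kb was 39.5%. Cdkn2d was at 72.7% in the knockout and 75.2% in the wild type. These shifts from the shares per kb follow from the construction, since the members differ in length. With the replicate number as a block 2 genes were called in all and 0 members. Same-numbered libraries deviated with a correlation of -0.14, and with crossed numbers, a choice made after seeing the data, 4 genes were called and 0 members. In fits without a library, a lone library is assumed to vary like the other genotype's. Depth limits the precision of Ccnd1 and Ccnd2, at 18 to 90 counts a library, but the knockout libraries of Ccnd1, at 53 (exact Poisson 95% interval 39.7 to 69.3) and 18 (10.7 to 28.4) counts, differed by more than counting error.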
